A study of Mus musculus with 10 samples.

Results

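Gene programs were measured in MLL-AF9-i139 cells, mouse leukemic cells in which miR-139 can be switched on with doxycycline (DOX). The libraries were 3 MLL-AF9-i139 clones with DOX, each set against its own culture without DOX, so 6 of the 10 RNA sequencing libraries of the series, chosen by clone and treatment in the labels. Hematopoietic stem and progenitor cells of wild-type C57BL/6 mice, 8 to 20 weeks old, had been transformed by retrovirus with the fusion oncogene MLL-AF9. They then received the DOX-sensitive repressor tetR-KRAB and a lentiviral vector with the Mir139 gene, and single colonies were grown out, so a clone is 1 colony and not 1 mouse. Clones 1 and 2 were exposed to DOX at 5 µg/mL for 48 h and clone 3 for 72 h, and the labels give no time for the untreated MLL-AF9-i139 cultures. Clone 3 and the longer time therefore cannot be told apart. The control line MLL-AF9-ieGFP carries the same oncogene with an inducible green fluorescent protein (eGFP) vector in place of that for miR-139. It is 1 clone in 4 libraries, a treated and an untreated culture each after 48 h and 72 h, so its pairs are not separate clones.

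The 6 libraries held between 38915790 and 47089725 counts. Levels are CPM (the share of a library's counts on a per-million scale, scaled by TMM, edgeR's factors for library composition) and are given in the order of clones 1, 2 and 3. The myeloid progenitor markers Kit, Fcgr3, Mpo, Hoxa9 and Meis1 and the leukocyte marker Ptprc were present in every library, with Kit between 135 and 167 CPM of the unscaled total. The T cell gene Cd3e had between 0 and 1 counts. Itgam, another myeloid marker, lies inside other annotated genes, and such genes are mostly listed at 0 in these counts (1253 of 1316 protein-coding genes fully inside other genes, against 24.9% of those outside them). It could not be judged, and neither could Txnip, Hif1a and B2m. The Mir139 transcript had 0 counts in all 10 libraries, so these counts do not check the induction itself.

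MicroRNAs are short RNAs that guide Argonaute proteins to messenger RNAs, chiefly by pairing of the seed, bases 2 to 8, with the 3′ untranslated region (UTR), and lower the stability or translation of what they bind. Mir139 lies in an intron of Pde2a on mouse chromosome 7, and its hairpin gives 2 mature products. They are printed here (RefSeq, GRCm38.p6, plus strand, 5′ to 3′) because both arms come from the induced hairpin, and capitals mark the seed. The first lies at chr7:101475382-101475403 and the second at chr7:101475418-101475439.
miR-139-5p: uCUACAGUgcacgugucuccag
miR-139-3p: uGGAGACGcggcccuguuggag

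MLL-AF9 holds progenitors in a self-renewing state through Hoxa9, Meis1 and Myc, in which the cells divide, build ribosomes and do not mature. Normal granulocyte precursors pass from that state through an ordered program. Primary granule proteins such as myeloperoxidase come first, secondary and tertiary granule proteins follow, and chemokine receptors, Fc and complement receptors and adhesion molecules mark late cells. The transcriptome of the 3 clones was therefore read program by program, over 58 gene lists with 1461 tested genes.

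DOX changed genes of both kinds of program. Of 19223 tested genes, 1356 rose (7.05% of all tested) and 1025 fell (5.33%), so 12.4% were called at an adjusted p under 0.05. Calls were more frequent among genes with an average log2 CPM of at least 1, where 1194 of 10830 rose and 938 fell. The shares over all tested genes are therefore a low bar for lists of well expressed genes. The test is edgeR's quasi-likelihood test with the clone as a block and Benjamini-Hochberg adjustment over all tested genes. The verbs rose and fell are used for genes that passed it. Lists of ribosome building, nucleotide synthesis and DNA replication lay at the low end, and lists of granule proteins, phagocyte receptors, the oxidase and lysosomes at the high end, as the plot of called shares by list shows. The median over all tested genes was 0.01 on the log2 scale, so shifts of lists are read against a centre near 0.

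**Figure D1:**
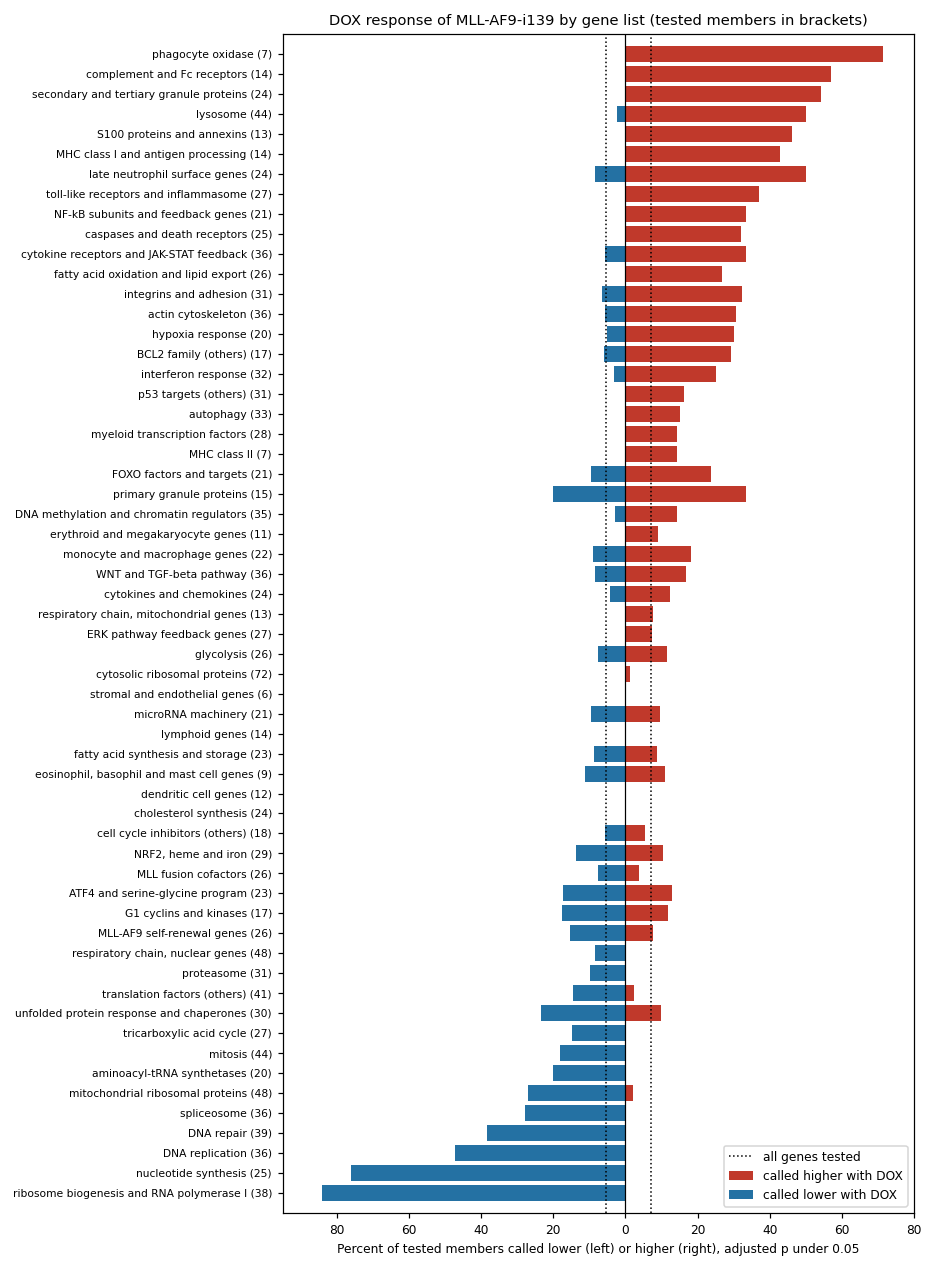
Percent of tested members called lower (blue, left) and higher (red, right) with DOX in the 3 MLL-AF9-i139 clones, for each of 58 gene lists, with the number of tested members in brackets. Dotted lines mark the shares over all tested genes (5.33% lower, 7.05% higher). Ribosome biogenesis has 32 of 38 members lower and none higher, and the phagocyte oxidase 5 of 7 higher and none lower.

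The number of calls rests on the clone block and on the clones with 48 h of DOX. Without the block 12 genes were called. Without clone 1 there were 324 calls and without clone 2 there were 580, against 7974 without clone 3. In the fits with 2 clones, 2 libraries per group remained. No gene called in the 3 clones turned its direction in any of these fits. They reuse the libraries that gave the calls, so the kept direction is no separate support. Of the 169 genes named by rule that were called, 57, 90 and 169 were still called without clone 1, 2 and 3, and 55 in each of the 3 fits. 

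Genes of ribosome building fell. All 38 tested genes of ribosome biogenesis and RNA polymerase I had a log2 fold change below 0, 32 of them fell and none rose, with a median of -0.52 (medians -0.67, -0.64 and -0.28 in clones 1, 2 and 3). In MLL-AF9-ieGFP the medians were -0.06 at 48 h and -0.03 at 72 h. In bulk samples, fewer cells of a type and less RNA per cell cannot be told apart. Nolc1, a nucleolar phosphoprotein that supports RNA polymerase I, was at 309, 339 and 351 CPM without DOX and 137, 156 and 265 CPM with DOX (log2 fold change -0.90 ± 0.15 (SE), adjusted p = 0.025). Every clone was lower with DOX, and the groups did not overlap. Ncl, the major nucleolar protein nucleolin, was at 1706, 1698 and 1875 CPM without DOX and 889.5, 899 and 1506 CPM with DOX (log2 fold change -0.73 ± 0.13 (SE), adjusted p = 0.0271). Clones 1 and 2 were nearly level with each other in both conditions, and clone 3 fell least. Utp20, part of the machinery that processes the small-subunit ribosomal RNA, was at 246, 250.5 and 265 CPM without DOX and 125, 132 and 206 CPM with DOX (log2 fold change -0.76 ± 0.13 (SE), adjusted p = 0.025). Its 6 libraries had the same order as those of Nolc1, with no overlap between groups. The number of members called lower was 38 without clone 3, 5 without clone 2 and 1 without clone 1.

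The ribosomal proteins themselves did not show this pattern. Of 72 tested cytosolic ribosomal protein genes 1 rose and none fell, with a median of 0.08. Rps27a, which encodes a ribosomal protein fused to ubiquitin, rose, at 572, 619.7 and 554 CPM without DOX and 768, 799 and 642 CPM with DOX (log2 fold change 0.33 ± 0.08 (SE), adjusted p = 0.0408). Rpl3 had a log2 fold change of -0.05 ± 0.07 (adjusted p = 0.66) and Rps3 of 0.08 ± 0.07 (adjusted p = 0.526). The translation factors, Eif4g2 not counted, lay between both groups. Of 41 members 6 fell (14.6%) and 1 rose (2.44%), against 5.33% and 7.05% of all tested genes (median -0.23). Eif2b3, a subunit of the exchange factor of initiation factor 2, fell with log2 fold change -0.65 ± 0.13 (SE), adjusted p = 0.0293. Eef2k, the kinase that inhibits elongation factor 2, was the member that rose, at 81, 101 and 99.6 CPM without DOX and 169.9, 143 and 124 CPM with DOX (log2 fold change 0.63 ± 0.14 (SE), adjusted p = 0.0377). Among 20 aminoacyl-tRNA synthetases, which charge transfer RNAs with amino acids, 4 fell (20%, against 5.33% of all tested genes) and none rose. Nars had a log2 fold change of -0.56 ± 0.12 (adjusted p = 0.0344).

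Nucleotide synthesis fell nearly as uniformly. Of 25 tested members 19 fell and none rose (median -0.54, by clone -0.66, -0.72 and -0.23, in MLL-AF9-ieGFP -0.05 at 48 h and -0.06 at 72 h). Cad, which catalyses the first steps of pyrimidine synthesis, was at 365, 414 and 408 CPM without DOX and 152, 180.4 and 307 CPM with DOX (log2 fold change -0.96 ± 0.17 (SE), adjusted p = 0.0257). The lowest untreated clone stayed above the highest DOX library. Rrm2, the subunit that limits ribonucleotide reductase, was at 209, 208 and 257 CPM without DOX and 119, 116 and 194 CPM with DOX (log2 fold change -0.68 ± 0.10 (SE), adjusted p = 0.0221), and clone 3 with DOX came close to the untreated level of the other clones. Dctd, which converts deoxycytidylate to deoxyuridylate, was at 59.5, 62.6 and 59 CPM without DOX and 26.3, 27.2 and 54.1 CPM with DOX (log2 fold change -0.84 ± 0.21 (SE), adjusted p = 0.0458). Without clones 3, 2 and 1 the members called lower were 23, 2 and 1.

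All 36 tested members had values below 0, 17 fell and none rose (median -0.35). Orc1, the largest subunit of the origin recognition complex, was at 12.4, 11.7 and 13.3 CPM without DOX and 6.18, 5.58 and 11.5 CPM with DOX (log2 fold change -0.76 ± 0.19 (SE), adjusted p = 0.0452). Clones 1 and 2 were clearly lower with DOX and clone 3 slightly, without overlap, and 63.3% of the Orc1 gene body is shared with other annotated genes, where reads cannot be assigned with certainty. Mcm10, which helps to start replication forks, was at 119, 130.3 and 130.5 CPM without DOX and 71.1, 71.7 and 96.8 CPM with DOX (log2 fold change -0.68 ± 0.10 (SE), adjusted p = 0.022), a fall in each clone. Mcm2, a subunit of the replicative helicase, had a log2 fold change of -0.36 ± 0.10 (adjusted p = 0.0535) and the clamp Pcna of -0.22 ± 0.08 (adjusted p = 0.103). Among 39 DNA repair genes 15 fell and none rose (median -0.37), and the uracil glycosylase Ung had a log2 fold change of -0.73 ± 0.17 (adjusted p = 0.0404). The calls were 34 of the replication list without clone 3, 2 without clone 2 and 0 without clone 1.

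Mitotic genes moved less. Of 44 tested members 8 fell and none rose (median -0.20), against 5.33% lower over all genes. Ccna2, the cyclin of S phase and mitotic entry, was at 135, 146 and 153 CPM without DOX and 89.2, 96.8 and 126 CPM with DOX (log2 fold change -0.49 ± 0.09 (SE), adjusted p = 0.0282) and Espl1, the protease separase, at -0.53 ± 0.10 on the log2 scale (adjusted p = 0.0278). Mki67, the proliferation marker, was at 737, 721 and 780.5 CPM without DOX and 771, 785 and 690.0 CPM with DOX (log2 fold change 0.00 ± 0.09 (SE), adjusted p = 0.983). Its groups overlapped, and clones 1 and 2 were slightly higher and clone 3 slightly lower with DOX. Ccnb1 had a log2 fold change of -0.28 ± 0.09 (adjusted p = 0.0787).

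The machinery of the G1 phase was split. Cdk6, the kinase that drives G1 in MLL-rearranged leukemia, was at 1776, 1481 and 1685 CPM without DOX and 1143, 992 and 1411 CPM with DOX (log2 fold change -0.49 ± 0.10 (SE), adjusted p = 0.0289), lower in each clone and without overlap. The phosphatase Cdc25a fell with a log2 fold change of -0.57 ± 0.12 (adjusted p = 0.0305). Ccnd3, a cyclin D that partners the same kinases, was at 111, 126 and 119 CPM without DOX and 224, 237 and 135 CPM with DOX (log2 fold change 0.71 ± 0.16 (SE), adjusted p = 0.0366), and Rb1, the retinoblastoma protein that they inactivate, at 50.2, 43.6 and 46.6 CPM without DOX and 77.3, 74.1 and 52.8 CPM with DOX (log2 fold change 0.52 ± 0.12 (SE), adjusted p = 0.0406). In total 2 of 17 list members rose (11.8%) and 3 fell (17.65%), against 7.05% and 5.33% of all tested genes (median -0.22). Cdkn1b, the inhibitor p27, was at 11.2, 12.7 and 13.6 CPM without DOX and 20, 22.9 and 16.4 CPM with DOX (log2 fold change 0.65 ± 0.14 (SE), adjusted p = 0.0355). The study reports further cell cycle inhibitors as higher with DOX, and the list leaves them out. Of its 18 tested inhibitors 1 rose and 1 fell (5.56% each, against 7.05% and 5.33% of all tested genes). The fall was that of E2f4, a repressor (-0.41 ± 0.09, adjusted p = 0.033). E2f1 itself had a log2 fold change of -0.39 ± 0.12 (adjusted p = 0.0687).

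The self-renewal genes of MLL-AF9 showed modest changes. Of 26 tested members 2 rose (7.69%) and 4 fell (15.4%), against 7.05% and 5.33% of all tested genes (median -0.04). Hoxa9 was at 119.5, 106 and 142 CPM without DOX and 86.3, 91.3 and 111 CPM with DOX (log2 fold change -0.35 ± 0.08 (SE), adjusted p = 0.0428). It was lower with DOX in each clone, but the groups overlapped because the untreated level of clone 2 lay below that of clone 3 with DOX. Myc was at 317, 366 and 367 CPM without DOX and 219, 232 and 319.6 CPM with DOX (log2 fold change -0.46 ± 0.10 (SE), adjusted p = 0.0359), where the untreated level of clone 1 lay just below that of clone 3 with DOX. Meis1, the partner of Hoxa9, was at 101, 93.8 and 113 CPM without DOX and 82.7, 94.1 and 98.1 CPM with DOX (log2 fold change -0.16 ± 0.09 (SE), adjusted p = 0.26), and Myb had a log2 fold change of -0.10 ± 0.08 (adjusted p = 0.417). Hoxa11 was at 43.7, 49 and 49.6 CPM without DOX and 20.6, 28.1 and 40.5 CPM with DOX (log2 fold change -0.73 ± 0.15 (SE), adjusted p = 0.0314). Id2, an inhibitor of basic helix-loop-helix factors, rose, at 2.82, 2.31 and 2.28 CPM without DOX and 20.4, 11.5 and 5.36 CPM with DOX (log2 fold change 2.17 ± 0.29 (SE), adjusted p = 0.0198). The study counts Id2 among myeloid differentiation factors that are lower in MLL-AF9 cells than in wild-type progenitors. Its rise is thus not read as a gain of self-renewal. Neither Hoxa9 nor Myc was called when clone 1 or clone 2 was left out.

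Cofactors of the fusion had 2 falls (7.69%) and 1 rise (3.85%) among 26 tested members, against 5.33% and 7.05% of all tested genes (median -0.03). Dpy30, the subunit shared by the complexes that methylate lysine 4 of histone H3, was at 65.2, 71.3 and 67.4 CPM without DOX and 29.5, 34.4 and 48.2 CPM with DOX (log2 fold change -0.89 ± 0.14 (SE), adjusted p = 0.0225). All 3 clones were lower, and the call held with any 1 clone left out. Ezh2, the main methyltransferase of the Polycomb complex PRC2, was at 162, 147 and 163 CPM without DOX and 115, 108 and 141 CPM with DOX (log2 fold change -0.39 ± 0.09 (SE), adjusted p = 0.0389), while its paralog Ezh1 was at 22.3, 24.5 and 23.6 CPM without DOX and 38.4, 41.1 and 26.3 CPM with DOX (log2 fold change 0.56 ± 0.14 (SE), adjusted p = 0.0446). Both comparisons were without overlap, with clone 3 nearest to its untreated level. Among 35 other DNA methylation and chromatin regulators 5 rose (14.3%) and 1 fell (2.86%), against 7.05% and 5.33% of all tested genes. Kdm6b, a demethylase of the mark that Ezh2 writes, was at 88.4, 96.2 and 111 CPM without DOX and 133, 161 and 124 CPM with DOX (log2 fold change 0.50 ± 0.12 (SE), adjusted p = 0.041), and Uhrf1, which guides maintenance methylation, fell with a log2 fold change of -0.59 ± 0.12 (adjusted p = 0.0296). Dnmt1 had -0.20 ± 0.08 (adjusted p = 0.16).

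Genes of the secondary and tertiary granules rose. Of 24 tested members 13 rose and none fell, against 7.05% higher over all tested genes, with a median of 0.88 (by clone 1.05, 1.03 and 0.46, in MLL-AF9-ieGFP -0.01 at 48 h and 0.06 at 72 h). Lcn2, the iron-binding protein lipocalin-2, was at 8.48, 6.38 and 5.83 CPM without DOX and 34.6, 26.9 and 11.6 CPM with DOX (log2 fold change 1.72 ± 0.22 (SE), adjusted p = 0.0173). Ngp, neutrophilic granule protein, was at 79.3, 56.3 and 42.8 CPM without DOX and 161, 189 and 104 CPM with DOX (log2 fold change 1.35 ± 0.14 (SE), adjusted p = 0.0109). For both genes each clone was higher with DOX than any clone without it. Stfa2l1, a stefin A family member, was at 8.54, 7.45 and 3.66 CPM without DOX and 108, 119.7 and 14.9 CPM with DOX (log2 fold change 3.32 ± 0.35 (SE), adjusted p = 0.0111), with clone 3 far below the others. Stefin genes are near-identical copies, so reads may be split among them. Ltf, the granule protein lactoferrin, had 0.52 ± 0.24 (adjusted p = 0.196) and the cathelicidin Camp 0.41 ± 0.19 (adjusted p = 0.197), and clone 1 was lower with DOX for both. S100a8 was at 62.5, 47.8 and 38 CPM without DOX and 82.4, 57.8 and 39 CPM with DOX (log2 fold change 0.24 ± 0.10 (SE), adjusted p = 0.145) and S100a9 at 66.8, 48.2 and 39.3 CPM without DOX and 68.1, 54.7 and 33.1 CPM with DOX (log2 fold change -0.01 ± 0.10 (SE), adjusted p = 0.959), so neither calgranulin subunit passed the test. The list had 16 members higher without clone 3, 9 without clone 2 and 8 without clone 1.

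The primary granule list was divided. Besides granule proteins it holds genes of the same stage, such as Ms4a3, and the inhibitor gene Serpinb1a. Among 15 tested members 5 rose and 3 fell, with a median of 0.02. Of the granule proteins named here, Mpo, Ctsg and Lyz2 rose, and Elane and Prtn3 did not pass the test. Mpo, myeloperoxidase, was at 416, 617 and 585 CPM without DOX and 1327, 1265 and 1685 CPM with DOX (log2 fold change 1.41 ± 0.13 (SE), adjusted p = 0.00954), higher with DOX in every clone and without overlap. In MLL-AF9-ieGFP it changed by 0.43 at 48 h and 0.53 at 72 h on the log2 scale. Ctsg, cathepsin G, was at 731, 966 and 1150 CPM without DOX and 1275, 1502 and 1641 CPM with DOX (log2 fold change 0.65 ± 0.08 (SE), adjusted p = 0.0179) and Lyz2, lysozyme, at 6.17, 5.85 and 9.6 CPM without DOX and 35.1, 29.6 and 14 CPM with DOX (log2 fold change 1.82 ± 0.36 (SE), adjusted p = 0.0301). Elane, neutrophil elastase, was at 1094, 1319 and 2023 CPM without DOX and 927, 1030 and 2694 CPM with DOX (log2 fold change -0.06 ± 0.15 (SE), adjusted p = 0.817). Clones 1 and 2 were lower with DOX and clone 3 was higher, so the groups overlapped. Prtn3, proteinase 3, had the same split (log2 fold changes -0.48, -0.82 and 0.05 by clone, adjusted p = 0.115). Ms4a3, a gene of early granulocyte progenitors, was at 118, 83.8 and 53 CPM without DOX and 54.1, 33 and 40 CPM with DOX (log2 fold change -0.96 ± 0.17 (SE), adjusted p = 0.027), and Serpinb1a, an elastase inhibitor, fell with a log2 fold change of -0.78 ± 0.15.

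**Figure D2:**
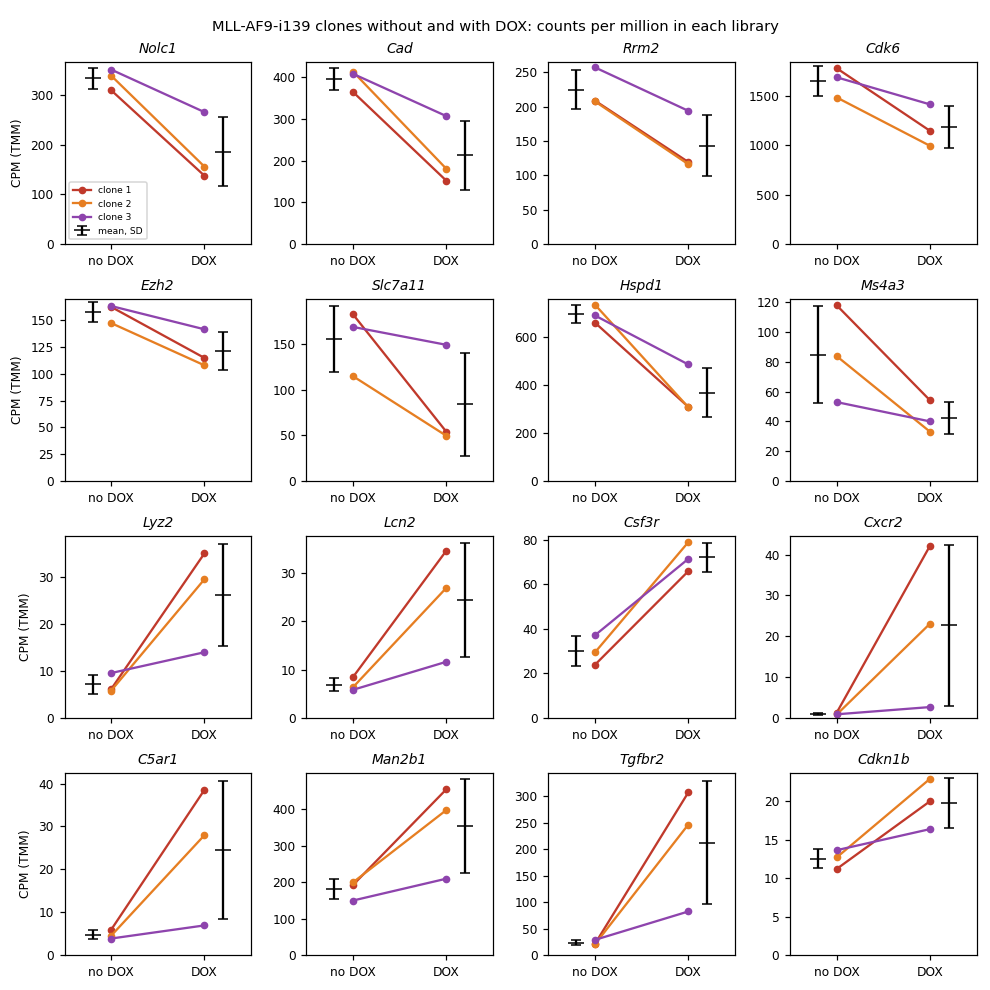
TMM-scaled CPM of 16 genes in the 3 MLL-AF9-i139 clones without and with DOX, on linear axes from 0. Lines join the libraries of a clone, and black marks are the mean and SD of 3 clones. Cxcr2, for example, is at 1.36, 0.891 and 0.921 CPM without DOX and 42.2, 23.1 and 2.69 CPM with DOX, and clone 3 (purple) changes least for most of the genes shown.

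Late neutrophil surface genes rose in number as the secondary granule genes did. Of 24 tested members 12 rose and 2 fell (median 0.89, by clone 0.86, 0.91 and 0.21). Csf3r, the receptor of granulocyte colony-stimulating factor, was at 23.9, 29.4 and 37.1 CPM without DOX and 65.8, 78.8 and 71.3 CPM with DOX (log2 fold change 1.28 ± 0.12 (SE), adjusted p = 0.00954). The groups lay far apart, and clone 3 with DOX stood between the other clones. C5ar1, the receptor of complement C5a, was at 5.92, 4.53 and 3.86 CPM without DOX and 38.5, 28 and 6.92 CPM with DOX (log2 fold change 2.12 ± 0.35 (SE), adjusted p = 0.0246), and here clone 3 stayed near the untreated level of clone 1. The C-type lectin Clec4d fell (-0.76 ± 0.13, adjusted p = 0.0246). Without clones 3, 2 and 1, 15, 9 and 5 members were called higher.

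Transcription factors of the myeloid lineage rose in 4 of 28 tested members, and none fell (median 0.31). Spi1, the master regulator PU.1, was at 82.7, 93.1 and 83.1 CPM without DOX and 148, 173 and 90.3 CPM with DOX (log2 fold change 0.62 ± 0.15 (SE), adjusted p = 0.0448). Clone 3 with DOX lay below clone 2 without it. Cebpe, the factor of secondary granule genes, was at 95.2, 111 and 88.5 CPM without DOX and 168, 177 and 102 CPM with DOX (log2 fold change 0.57 ± 0.12 (SE), adjusted p = 0.0347), and Irf1 rose with a log2 fold change of 0.74 ± 0.16 (adjusted p = 0.0335). Cebpa, which acts earlier in the lineage, had 0.17 ± 0.12 (adjusted p = 0.372), and Cebpb had 0.58, 0.68 and -0.22 by clone (adjusted p = 0.211).

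The monocyte and macrophage list had 4 rises (18.2%) and 2 falls (9.09%) among 22 tested members, against 7.05% and 5.33% of all tested genes (median 0.30). Csf1r, the receptor that directs macrophage fate, was at 1.54, 1.26 and 0.844 CPM without DOX and 5.22, 2.61 and 1.51 CPM with DOX (log2 fold change 1.26 ± 0.23 (SE), adjusted p = 0.0278). Lgals3, galectin-3, was at 23.2, 24.1 and 19 CPM without DOX and 82.4, 98.7 and 23.3 CPM with DOX (log2 fold change 1.41 ± 0.31 (SE), adjusted p = 0.0361), with the rise of clone 3 small beside the others. Apoe fell, at 14.8, 12.6 and 15.3 CPM without DOX and 7.77, 8.58 and 12.4 CPM with DOX (log2 fold change -0.59 ± 0.15 (SE), adjusted p = 0.0443), and Cd14 had 0.94 ± 0.28 (adjusted p = 0.0695). Programs of other lineages held few tested genes and few calls. None of 12 dendritic cell genes, 14 lymphoid genes or 6 stromal and endothelial genes with enough counts passed the test. The summed level of the tested lymphoid genes lay between 25.2 and 49.6 CPM without DOX and between 17.3 and 60.8 CPM with it. Of 11 erythroid and megakaryocyte genes 1 rose and none fell, and the adult globins Hba-a2, Hbb-bs and Hbb-bt had 0 counts in the 6 libraries. The summed level of the 11 genes was 605, 590 and 397.5 CPM without DOX and 356, 321.5 and 387 CPM with DOX. It was lower with DOX in each clone, least so in clone 3. The gene that rose, Gp9 of platelets, held 101 counts over the 6 libraries and is named after its values were seen. Among 9 genes of eosinophils, basophils and mast cells, Mcpt8, a basophil protease, rose (0.71 ± 0.11, adjusted p = 0.0236) and Hdc, histidine decarboxylase, fell (-0.85 ± 0.15, adjusted p = 0.0255). Each makes up 11.1% of that list, against 7.05% higher and 5.33% lower over all tested genes.

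Complement and Fc receptors had the highest median of all 58 lists, 1.03 (by clone 1.32, 1.22 and 0.48, in MLL-AF9-ieGFP -0.06 at 48 h and -0.10 at 72 h), with 8 of 14 members higher and none lower. Fcgrt, the neonatal Fc receptor, was at 0.597, 0.548 and 0.563 CPM without DOX and 5.07, 3.67 and 1.39 CPM with DOX (log2 fold change 2.46 ± 0.34 (SE), adjusted p = 0.0201). C3 itself, the central complement protein, was at 127, 121 and 115 CPM without DOX and 184, 199 and 126 CPM with DOX (log2 fold change 0.46 ± 0.12 (SE), adjusted p = 0.0471), where clone 3 with DOX lay below the untreated clone 1. Of the phagocyte oxidase, the complex that makes superoxide, 5 of 7 members rose and none fell (median 0.68). Hvcn1, the proton channel that balances its charge, was at 5.72, 9.74 and 9.57 CPM without DOX and 30.2, 41.4 and 20.1 CPM with DOX (log2 fold change 1.86 ± 0.24 (SE), adjusted p = 0.018). Ncf1, the organiser subunit p47phox, was at 60.7, 64.3 and 64.6 CPM without DOX and 161, 163 and 81 CPM with DOX (log2 fold change 1.03 ± 0.20 (SE), adjusted p = 0.0296), with clones 1 and 2 far above clone 3 in the DOX libraries. Cybb, the catalytic subunit, was at 0.453, 0.389 and 0.179 CPM without DOX and 1.04, 0.75 and 0.179 CPM with DOX and had 0.89 ± 0.32 (adjusted p = 0.11).

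Lysosomal genes rose in 22 of 44 tested members and fell in 1 (median 0.46, by clone 0.63, 0.58 and 0.18, in MLL-AF9-ieGFP 0.04 at 48 h and 0.10 at 72 h). Man2b1, lysosomal alpha-mannosidase, was at 193, 199.7 and 149.8 CPM without DOX and 455, 398 and 209.7 CPM with DOX (log2 fold change 0.91 ± 0.14 (SE), adjusted p = 0.0228), and every DOX library was above every untreated one. Ctsd, cathepsin D, was at 71.1, 77.8 and 63.6 CPM without DOX and 156, 144 and 79.3 CPM with DOX (log2 fold change 0.78 ± 0.15 (SE), adjusted p = 0.0287), without overlap, although 55.7% of its gene body is shared with other annotated genes. Tfeb, the transcription factor that drives lysosomal genes, was at 12.7, 11.5 and 13 CPM without DOX and 21.5, 26.2 and 17.5 CPM with DOX (log2 fold change 0.80 ± 0.15 (SE), adjusted p = 0.0287). Cathepsin L, Ctsl, was the member that fell (-0.36 ± 0.08, adjusted p = 0.0406). Autophagy genes rose in 5 of 33 (15.15%, against 7.05% of all tested genes) and fell in none (median 0.20). The receptor Sqstm1 was at 138, 147 and 128 CPM without DOX and 256, 267 and 156 CPM with DOX (log2 fold change 0.68 ± 0.13 (SE), adjusted p = 0.0281). The lysosomal members called higher were 37, 7 and 2 without clones 3, 2 and 1.

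Integrins and adhesion genes had 10 rises and 2 falls among 31 (median 0.25). Itgb2, the beta-2 chain of leukocyte integrins, was at 200.0, 222 and 172 CPM without DOX and 673, 726 and 267 CPM with DOX (log2 fold change 1.37 ± 0.21 (SE), adjusted p = 0.0229), and its partner Itgal at 105, 115 and 128 CPM without DOX and 228, 226 and 199 CPM with DOX (log2 fold change 0.91 ± 0.11 (SE), adjusted p = 0.0148). Itgb1, the chain of the fibronectin and collagen receptors, was at 182, 179.5 and 189.7 CPM without DOX and 142, 129 and 160.3 CPM with DOX (log2 fold change -0.36 ± 0.08 (SE), adjusted p = 0.038). Thus the leukocyte beta chain was higher and the common beta chain lower in each clone with DOX. Of 36 actin cytoskeleton genes 11 rose and 2 fell (median 0.29). Coro1a, coronin-1A of leukocyte actin, was at 177, 197 and 186 CPM without DOX and 498, 546 and 259.5 CPM with DOX (log2 fold change 1.15 ± 0.20 (SE), adjusted p = 0.0253) and Vim, vimentin, at 161, 196 and 153 CPM without DOX and 123, 96.7 and 116 CPM with DOX (log2 fold change -0.60 ± 0.13 (SE), adjusted p = 0.0369). Among S100 proteins and annexins 6 of 13 rose, S100a1 with a log2 fold change of 0.89 ± 0.11 (adjusted p = 0.0173). In the class I antigen presentation list 6 of 14 rose (median 0.39), Tapbp, which loads peptides, at 26.6, 31.4 and 19.7 CPM without DOX and 70.5, 70.1 and 35.9 CPM with DOX (log2 fold change 1.15 ± 0.12 (SE), adjusted p = 0.0107). Of 7 class II genes 1 rose (14.3%, against 7.05% of all tested genes), and the invariant chain Cd74 had -0.51 ± 0.19 (adjusted p = 0.119).

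Cytokine receptors and their feedback genes had 12 rises and 2 falls among 36 (median 0.36). Csf2rb2, a beta chain of the interleukin-3 receptor, was at 38.8, 32.4 and 40.1 CPM without DOX and 124, 117 and 51.2 CPM with DOX (log2 fold change 1.30 ± 0.27 (SE), adjusted p = 0.0323). The medium holds interleukin-3, interleukin-6, granulocyte-macrophage colony-stimulating factor and stem cell factor in both conditions. Socs3, the feedback inhibitor of cytokine signalling, was at 1.52, 1.14 and 2.33 CPM without DOX and 3.42, 2.71 and 4.54 CPM with DOX (log2 fold change 1.12 ± 0.17 (SE), adjusted p = 0.0225), and in MLL-AF9-ieGFP it had 0.41 on the log2 scale. The survival kinases Pim1 and Pim3 fell, with log2 fold changes of -0.35 ± 0.09 and -0.46 ± 0.12 (adjusted p = 0.0486 and 0.0493). Among NF-kB subunits and feedback genes 7 of 21 rose and none fell (median 0.34). Nfkbia, the inhibitor IkB-alpha, was at 25.4, 24.1 and 25.4 CPM without DOX and 44.4, 43.8 and 32.3 CPM with DOX (log2 fold change 0.67 ± 0.12 (SE), adjusted p = 0.0271), and Relb, a subunit, at 1.3, 1.37 and 1.18 CPM without DOX and 3.67, 4.29 and 1.61 CPM with DOX (log2 fold change 1.24 ± 0.26 (SE), adjusted p = 0.0329). Both separated the groups, with clone 3 nearest to the untreated libraries.

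Of 27 toll-like receptor and inflammasome genes 10 rose and none fell (median 0.47). Tlr7, the receptor of single-stranded RNA, was at 1.09, 0.8 and 1.41 CPM without DOX and 10.3, 7.71 and 2 CPM with DOX (log2 fold change 2.41 ± 0.52 (SE), adjusted p = 0.035), and the protease Casp1 at 18.2, 18.8 and 11.4 CPM without DOX and 32.5, 30.7 and 15.6 CPM with DOX (log2 fold change 0.67 ± 0.11 (SE), adjusted p = 0.0246). Nlrp3 was at 0.885, 0.686 and 1.64 CPM without DOX and 3.31, 0.776 and 1.05 CPM with DOX (adjusted p = 0.469), with the largest rise in clone 1 and a lower level in clone 3. The interferon response list had 8 rises and 1 fall among 32 (median 0.39). Ddx58, the RNA sensor RIG-I, was at 14.1, 13.3 and 12.1 CPM without DOX and 35.2, 40 and 21.8 CPM with DOX (log2 fold change 1.26 ± 0.15 (SE), adjusted p = 0.0152), and Parp14 at 4.73, 6.47 and 5.71 CPM without DOX and 15.2, 20.9 and 8.72 CPM with DOX (log2 fold change 1.34 ± 0.23 (SE), adjusted p = 0.025). Irf7, a central factor of the response, had 0.32 ± 0.17 (adjusted p = 0.255). Cmpk2, an interferon-induced kinase of nucleotides, fell with a log2 fold change of -0.88 ± 0.17 (adjusted p = 0.0297). Among 24 cytokines and chemokines 3 rose (12.5%) and 1 fell (4.17%), against 7.05% and 5.33% of all tested genes. Tgfb1 was at 226, 279.8 and 209.6 CPM without DOX and 462, 484 and 263 CPM with DOX (log2 fold change 0.72 ± 0.13 (SE), adjusted p = 0.0278), while Tnf had 0.48 ± 0.16 (adjusted p = 0.0999).

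The TGF-beta branch had its receptor among the larger rises. Tgfbr2, the receptor subunit that binds the ligand, was at 21.2, 20.4 and 28.8 CPM without DOX and 307, 246 and 82.3 CPM with DOX (log2 fold change 3.02 ± 0.44 (SE), adjusted p = 0.0217). Each DOX library was above every untreated library, and MLL-AF9-ieGFP had 0.08 on the log2 scale. The feedback genes Skil and Smad7 rose, Skil at 41.1, 31.5 and 36.2 CPM without DOX and 95.2, 80 and 47.5 CPM with DOX (log2 fold change 0.99 ± 0.18 (SE), adjusted p = 0.0272) and Smad7 with a log2 fold change of 0.45 ± 0.10 (adjusted p = 0.0341). Bambi, a decoy receptor of the same pathway, was at 16.1, 15.6 and 17.3 CPM without DOX and 5.73, 5.27 and 13 CPM with DOX (log2 fold change -1.15 ± 0.23 (SE), adjusted p = 0.0303). Znrf3, a membrane ligase that removes WNT receptors, was at 138, 112 and 152 CPM without DOX and 47.4, 44.5 and 131 CPM with DOX (log2 fold change -1.03 ± 0.24 (SE), adjusted p = 0.0391), and clone 3 with DOX overlapped the untreated clones. Ctnnb1, beta-catenin, had -0.24 ± 0.08 (adjusted p = 0.0842). Of the list 6 of 36 WNT and TGF-beta genes rose and 3 fell (median -0.01). Of 27 ERK pathway genes 2 rose (7.41%, near the 7.05% of all tested genes) and none fell. The kinase ERK1, Mapk3, was at 60.3, 66.7 and 49.3 CPM without DOX and 138, 152 and 67 CPM with DOX (log2 fold change 0.94 ± 0.15 (SE), adjusted p = 0.0245). The feedback phosphatase Dusp6 had 0.13 ± 0.18 (adjusted p = 0.67).

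Genes that oppose and genes that promote cell death were both among those called. Of 17 tested BCL2 family members (Bmf not counted) 5 rose and 1 fell (median 0.34). Bcl2l1, which encodes the anti-apoptotic BCL-XL, was at 56.3, 54.2 and 49.8 CPM without DOX and 118, 116 and 65.7 CPM with DOX (log2 fold change 0.86 ± 0.15 (SE), adjusted p = 0.025). Bcl2a1a, another anti-apoptotic member with near-identical copies, was at 7.12, 8.32 and 10.2 CPM without DOX and 22.8, 22.3 and 18.5 CPM with DOX (log2 fold change 1.32 ± 0.17 (SE), adjusted p = 0.0173). Bid, which carries the death receptor signal to mitochondria, was at 61.1, 72.3 and 76.9 CPM without DOX and 36.1, 37.6 and 63.8 CPM with DOX (log2 fold change -0.66 ± 0.13 (SE), adjusted p = 0.0311). The BH3-only gene Bcl2l11 had 0.48 ± 0.14 (adjusted p = 0.0698), Bbc3 had 0.17 ± 0.16 (adjusted p = 0.503) and Mcl1 had 0.34 ± 0.12 (adjusted p = 0.109). Of 25 caspases and death receptors 8 rose and none fell (median 0.30).

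Listed p53 targets, not counting those the study names, rose in 5 of 31 (16.1%, against 7.05% of all tested genes) and fell in none (median 0.17). Trp53 was at 150.2, 171 and 157 CPM without DOX and 150.5, 170.4 and 148 CPM with DOX (log2 fold change -0.03 ± 0.08 (SE), adjusted p = 0.833) and Mdm2, its target and inhibitor, had 0.23 ± 0.11 (adjusted p = 0.21). Foxo3, a factor that represses growth when AKT is inactive, was at 138, 146 and 186 CPM without DOX and 327, 314 and 234 CPM with DOX (log2 fold change 0.89 ± 0.17 (SE), adjusted p = 0.0282). It was higher with DOX in each clone and without overlap. Sesn3, a target that restrains mTORC1, was at 1.11, 0.366 and 0.537 CPM without DOX and 6.2, 2.51 and 1.41 CPM with DOX (log2 fold change 2.26 ± 0.28 (SE), adjusted p = 0.0173). The FOXO list had 5 rises and 2 falls among 21 (median 0.33), and Sod2, the mitochondrial dismutase counted among FOXO targets, was at 95.5, 108 and 108 CPM without DOX and 56.9, 56.6 and 95.2 CPM with DOX (log2 fold change -0.62 ± 0.14 (SE), adjusted p = 0.0404).

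In metabolism, few genes of the citrate cycle and the nuclear respiratory chain were called, and glycolysis had calls in both directions. Of 27 tricarboxylic acid cycle genes 4 fell (14.8%, against 5.33% of all tested genes) and none rose (median -0.20). Dlat, a subunit of pyruvate dehydrogenase, was at 74.6, 86.8 and 87.5 CPM without DOX and 47.6, 54.4 and 66.4 CPM with DOX (log2 fold change -0.57 ± 0.09 (SE), adjusted p = 0.0235). Of 48 nuclear genes of the respiratory chain 4 fell (8.33%, against 5.33% of all tested genes) and none rose, and this count was between 0 and 27 with 1 clone left out. Of the 10830 genes with an average log2 CPM of at least 1, 938 fell, so 4 calls set this list little apart. Cytochrome c, Cycs, was among the 4, at 74.3, 94.9 and 96.8 CPM without DOX and 48.6, 52 and 67.4 CPM with DOX (log2 fold change -0.67 ± 0.10 (SE), adjusted p = 0.0205). Dlat and Cycs were lower in each clone, clone 3 included. Mitochondrial ribosomal proteins fell in 13 of 48 and rose in 1 (median -0.29). Glycolysis had 3 rises (11.5%) and 2 falls (7.69%) among 26 (median 0.08), against 7.05% and 5.33% of all tested genes. Among the same 10830 genes 1194 rose and 938 fell, so these counts set glycolysis little apart. The hexokinase Hk1 was at 148, 161 and 178 CPM without DOX and 270.4, 279 and 254 CPM with DOX (log2 fold change 0.73 ± 0.09 (SE), adjusted p = 0.0179). Its paralog Hk2 was at 246, 256 and 244 CPM without DOX and 164, 185 and 211 CPM with DOX (log2 fold change -0.42 ± 0.09 (SE), adjusted p = 0.036). Slc16a1, a lactate transporter, was at 194, 199 and 233 CPM without DOX and 75.3, 88 and 210.1 CPM with DOX (log2 fold change -0.90 ± 0.22 (SE), adjusted p = 0.0436).

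Transcripts of the mitochondrial genome had the highest median of all lists in MLL-AF9-ieGFP at 48 h. DOX is known to inhibit mitochondrial ribosomes. The median over 13 genes was 0.26, -0.45 and 0.55 in clones 1, 2 and 3, and 0.42 at 48 h and 0.21 at 72 h in MLL-AF9-ieGFP. mt-Cytb, a subunit of complex III, was at 1430, 1427 and 1660 CPM without DOX and 2112, 1762 and 2513 CPM with DOX (log2 fold change 0.49 ± 0.09 (SE), adjusted p = 0.0269) and changed by 0.67 in MLL-AF9-ieGFP. The difference of the responses was -0.20 ± 0.12 (SE, adjusted p = 0.406). mt-Co1 had -0.11 ± 0.08 (adjusted p = 0.42) in the i139 clones and -0.11 in MLL-AF9-ieGFP.

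The hypoxia list, whose members also answer to other signals, had 6 rises and 1 fall among 20 (median 0.28). Ddit4, an inhibitor of mTORC1, was at 17.1, 16.7 and 15.9 CPM without DOX and 74.3, 70.5 and 17.9 CPM with DOX (log2 fold change 1.49 ± 0.37 (SE), adjusted p = 0.044), with clone 3 near its untreated level. Car12, a carbonic anhydrase, fell, at 103, 106 and 119 CPM without DOX and 33.1, 38.5 and 88.9 CPM with DOX (log2 fold change -1.18 ± 0.22 (SE), adjusted p = 0.0282). Cholesterol synthesis had no call among 24 genes (median -0.08). Of 23 genes of fatty acid synthesis and storage 2 rose and 2 fell (8.7% each, against 7.05% and 5.33% of all tested genes). Acaca, acetyl-CoA carboxylase, was at 249, 232 and 255 CPM without DOX and 121, 123 and 219.8 CPM with DOX (log2 fold change -0.72 ± 0.16 (SE), adjusted p = 0.0348) and Fasn had 0.13 ± 0.08 (adjusted p = 0.298). Fatty acid oxidation and lipid export had 7 rises and no fall among 26 (median 0.32). Lipa, the lysosomal lipase, was at 35.3, 32.1 and 28.6 CPM without DOX and 101, 73.5 and 33.8 CPM with DOX (log2 fold change 0.99 ± 0.22 (SE), adjusted p = 0.0366). Pparg was at 18.4, 5 and 5.12 CPM without DOX and 38.8, 11.9 and 7.64 CPM with DOX (log2 fold change 0.98 ± 0.15 (SE), adjusted p = 0.022), and clone 1 stood above the other clones in both conditions. The cholesterol exporter Abca1 was at 1.09, 1.14 and 1.3 CPM without DOX and 5.2, 4.83 and 0.949 CPM with DOX (adjusted p = 0.0999), higher in clones 1 and 2 and lower in clone 3.

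Stress programs fell in part. Of 30 unfolded protein response and chaperone genes 3 rose and 7 fell (median -0.08), and the members that fell are chaperones of the cytosol and of mitochondria. Hspd1, the mitochondrial chaperonin, was at 659, 734 and 689 CPM without DOX and 309, 307 and 485 CPM with DOX (log2 fold change -0.95 ± 0.14 (SE), adjusted p = 0.022), and its partner Hspe1 at 128, 153 and 135 CPM without DOX and 57.4, 60.5 and 101 CPM with DOX (log2 fold change -0.97 ± 0.17 (SE), adjusted p = 0.0264). These calls held with any 1 clone left out. Edem1, which removes misfolded proteins from the endoplasmic reticulum, was at 147, 154 and 162 CPM without DOX and 325, 325 and 198 CPM with DOX (log2 fold change 0.84 ± 0.17 (SE), adjusted p = 0.0296). Its main chaperone Hspa5 had -0.25 ± 0.10 (adjusted p = 0.133). The ATF4 and serine-glycine list had 3 rises (13%) and 4 falls (17.4%) among 23, against 7.05% and 5.33% of all tested genes. Slc7a11, the cystine transporter, was at 182, 115 and 169 CPM without DOX and 53.9, 49.5 and 149 CPM with DOX (log2 fold change -1.05 ± 0.27 (SE), adjusted p = 0.0469). Clone 3 barely changed, and MLL-AF9-ieGFP had 0.57. Gclc, which limits glutathione synthesis, was at 173, 139.9 and 129 CPM without DOX and 74.9, 72.9 and 99.3 CPM with DOX (log2 fold change -0.84 ± 0.15 (SE), adjusted p = 0.0271). The heme oxygenase Hmox1 rose (0.78 ± 0.14, adjusted p = 0.0278) and had 0.51 in MLL-AF9-ieGFP. Of 29 NRF2, heme and iron genes 3 rose (10.3%) and 4 fell (13.8%), against 7.05% and 5.33% of all tested genes.

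Of 36 spliceosome genes 10 fell (27.8%) and none rose (median -0.29). Prpf4, a protein of the U4/U6 particle, was at 51.3, 57.7 and 53.6 CPM without DOX and 35, 37.7 and 41 CPM with DOX (log2 fold change -0.52 ± 0.09 (SE), adjusted p = 0.025). Of 31 proteasome genes 3 fell (9.68%, against 5.33% of all tested genes) and none rose (median -0.18, by clone -0.19, -0.17 and -0.17). Of the 10830 genes with an average log2 CPM of at least 1, 938 fell, so the number of calls sets the proteasome little apart. Without clone 1 or without clone 2, 0 genes of either list were called lower. The microRNA machinery had 2 rises and 2 falls among 21 (9.52% each, against 7.05% and 5.33% of all tested genes). Tnrc6b, which recruits the decay enzymes, was at 442, 362 and 439 CPM without DOX and 709, 672 and 494 CPM with DOX (log2 fold change 0.58 ± 0.14 (SE), adjusted p = 0.04) and Xpo5, which exports precursors, at 196, 217 and 226 CPM without DOX and 124, 142 and 207 CPM with DOX (log2 fold change -0.47 ± 0.12 (SE), adjusted p = 0.046). Lin28b, an inhibitor of let-7 processing, was at 99.8, 92.6 and 107 CPM without DOX and 54.2, 57.2 and 91.6 CPM with DOX (log2 fold change -0.60 ± 0.13 (SE), adjusted p = 0.0345), and Ago2 had -0.13 ± 0.07 (adjusted p = 0.274).

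The response differed in size between the clones. Over 10830 genes with an average log2 CPM of at least 1, the SD of the log2 fold changes was 0.58 in clone 1, 0.60 in clone 2 and 0.28 in clone 3. It was 0.17 and 0.21 in MLL-AF9-ieGFP at 48 h and 72 h. Changes over 2-fold were seen for 745, 799 and 103 of these genes in clones 1, 2 and 3, and for 17 and 26 genes in MLL-AF9-ieGFP. No test is possible within a clone. Of 36 lists with medians beyond 0.2 of the same sign in both 48 h clones, 34 had a smaller median of the same sign in clone 3. The other 2, G1 cyclins and kinases (-0.32, -0.38 and 0.03 by clone) and the ATF4 and serine-glycine program (-0.32, -0.40 and 0.04), had a median above 0 in clone 3. These 2 lists are among those plotted. The highest absolute median of the 36 lists in MLL-AF9-ieGFP was 0.13 at 48 h and 0.21 at 72 h. The spread of the points by pair shows the 48 h clones side by side, clone 3 between them and 0 in most lists, and the control line around 0. Clone 3 lay on the other side of 0 for these 2 lists, primary granule proteins and the unfolded protein response and chaperones.

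**Figure D3:**
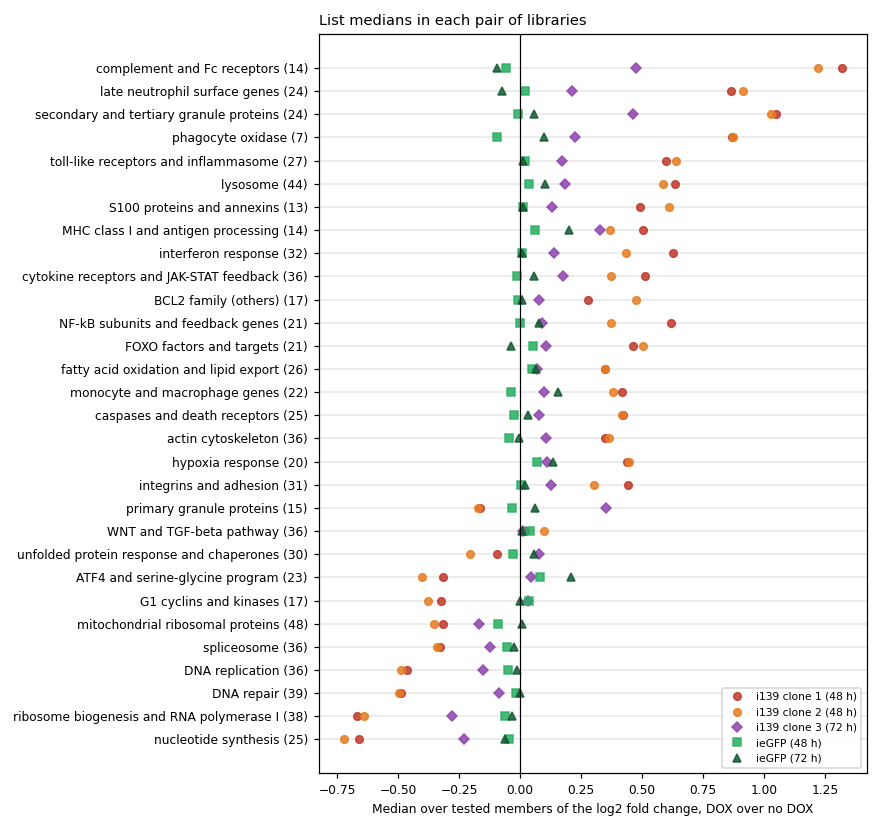
Median log2 fold change (DOX over no DOX) over the tested members of the 30 lists with at least 25% of members called, in each pair of libraries. Circles are the i139 clones at 48 h, diamonds clone 3 at 72 h, and squares and triangles MLL-AF9-ieGFP at 48 h and 72 h. In complement and Fc receptors the clones have 1.32, 1.22 and 0.48 and the control line -0.06 at 48 h and -0.10 at 72 h.

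The size of clone 3 was not reduced for every gene. Mpo had 1.68, 1.04 and 1.53 in clones 1, 2 and 3, and Ngp had 1.02, 1.74 and 1.27, with clone 3 between the other clones for both. For Cxcr2 the values were 4.91, 4.63 and 1.50 and for Tlr7 3.19, 3.19 and 0.49, with clone 3 the lowest. For primary granule proteins the medians were -0.16, -0.17 and 0.35, so clone 3 alone lay above 0. The heat map gives the pairs gene by gene.

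**Figure D4:**
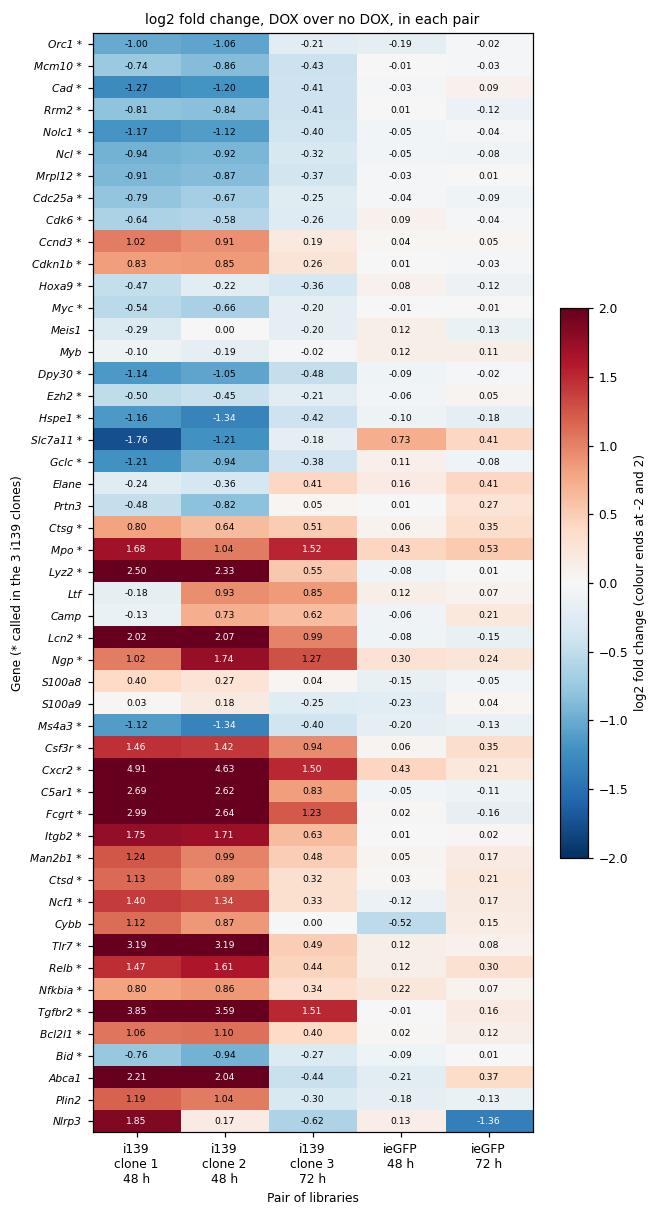
Log2 fold change (DOX over no DOX, prior count 2) of 50 genes of the lists in each of 5 pairs of libraries, with the value in each cell and colours ending at -2 and 2. An asterisk marks genes called over the 3 MLL-AF9-i139 clones. The first 2 columns are alike, clone 3 is paler for most genes but not for Mpo (1.68, 1.04 and 1.53), and the MLL-AF9-ieGFP columns are mostly near 0.

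The comparison with MLL-AF9-ieGFP separates effects of the induced transgene from those of DOX and of the vector, as far as 1 control clone can. In MLL-AF9-ieGFP none of 20269 genes passed an adjusted p of 0.05 for DOX, and 389 had an unadjusted p under 0.05 (edgeR, the sole tool run for this line). That fit covered all 10 libraries, so its error also held the spread among the i139 clones. The line itself gave 2 pairs of 1 clone, so the lack of calls does not show that DOX had no effect there. For the difference between both responses 38 of 20269 genes passed (0.187%), 33 of them with the more positive change in the i139 clones and 5 with the more negative. The list members Il1rn, Lcn2, Wfdc21, Stfa2l1 and Angptl4 were among them. For Lcn2 the difference was 1.83 ± 0.29 (SE, adjusted p = 0.0436). Of the falls described above, Rrm2 had -0.64 ± 0.15 (SE, adjusted p = 0.0929) and Hspd1 -0.93 ± 0.19 (SE, adjusted p = 0.0824). No member of the ribosome biogenesis, nucleotide synthesis or DNA replication lists passed this test of the difference. The same held for late neutrophil surface genes, complement and Fc receptors and the phagocyte oxidase. Among secondary and tertiary granule proteins 4 members passed, and among lysosomal genes 1. With the 48 h pairs alone 4758 genes passed, and without clone 3 5616, against 4 without clone 1 and 8 without clone 2.

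Genes outside the lists were taken by rule as the 10 largest rises and 10 largest falls among called genes with an average log2 CPM of at least 1 and the same direction in the 3 clones. Src, a tyrosine kinase, was at 0.844, 0.434 and 0.665 CPM without DOX and 16.1, 8.32 and 1.41 CPM with DOX (log2 fold change 3.41 ± 0.58 (SE), adjusted p = 0.025), and Cyp4f18, which inactivates leukotriene B4, at 0.473, 0.434 and 0.384 CPM without DOX and 10.4, 5.43 and 1.28 CPM with DOX (log2 fold change 3.50 ± 0.45 (SE), adjusted p = 0.0179). Both rose in each clone, with clone 3 far below the others. Ces2g, a carboxylesterase, had one of the 5 smallest p-values for the difference between the lines. It was at 6.97, 7.22 and 10.6 CPM without DOX and 25.8, 25 and 39.2 CPM with DOX (log2 fold change 1.86 ± 0.10 (SE), adjusted p = 0.00138), and clone 3 with DOX was its highest library. Among the falls, Magi2, a scaffold protein, was at 9.05, 8.25 and 15.5 CPM without DOX and 1.53, 1.94 and 8.9 CPM with DOX (log2 fold change -1.76 ± 0.32 (SE), adjusted p = 0.0274). Rragd, a GTPase that brings mTORC1 to lysosomes, was at 14.7, 21.4 and 14.2 CPM without DOX and 3.46, 5.14 and 10.8 CPM with DOX (log2 fold change -1.50 ± 0.33 (SE), adjusted p = 0.0351), and Rcor2, a corepressor partner of the demethylase LSD1, at 7.41, 7.75 and 17.9 CPM without DOX and 2.63, 1.86 and 9.56 CPM with DOX (log2 fold change -1.45 ± 0.22 (SE), adjusted p = 0.022). Pkp2, a plakophilin of cell junctions, was at 2.98, 3.36 and 2.48 CPM without DOX and 1.44, 0.776 and 0.846 CPM with DOX (log2 fold change -1.54 ± 0.24 (SE), adjusted p = 0.0235), with clone 3 as low as the others.

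Seed matches were counted in the longest annotated 3′ UTR of 13995 tested genes (GENCODE M21, GRCm38). A match is ACTGTAG, the complement of bases 2 to 8 of miR-139-5p, or its last 6 letters followed by A. It was present in 24.7% of 958 genes that fell, 22.3% of 1219 that rose and 21.4% of 11818 that were not called, with median UTR lengths of 1084, 1230 and 1080 bases. For the 8-letter match, ACTGTAGA, the shares were 6.78%, 4.18% and 4.1%. For miR-139-3p the shares of the shorter match were 15.8%, 18.8% and 15.6%. These are counts of letters and not of sites shown to bind.

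Among the list genes that fell, 12 with an average log2 CPM of at least 1 and one direction in the clones held the 8-letter match, with 1 chromosome and a few genes left out of the search. The 4 with the largest falls are shown as examples of the match. Each is 30 bases of the 3′ UTR, 5′ to 3′ on the strand of the gene, with the match in capitals. The site of Dpy30 lies at chr17:74299701-74299730 (-) and that of Gclc at chr9:77794246-77794275 (+). The site of Bms1, a ribosome assembly GTPase (-0.55 ± 0.10), lies at chr6:118383520-118383549 (-). The site of Cdc6, which loads the replicative helicase (-0.53 ± 0.10), lies at chr11:98922853-98922882 (+).
Dpy30: atttggttgctACTGTAGAtttacatgatt
Gclc: ctaaaataactACTGTAGAttaagccaagc
Bms1: tgcctggaggaACTGTAGAaagcctgctgg
Cdc6: cactgcagaagACTGTAGAgaggagattgg

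Promoters of the lists were searched for 3 motifs on both strands, in 250 bases before and 50 after the start (RefSeq, GRCm38.p6, 12232 of the tested genes matched). The E2F motif, TTTGGCGC or TTTCGCGC, was in 8 of 30 DNA replication promoters (26.7%) and 1.37% of all tested genes. GAGGAAGT, a core bound by PU.1, was in 4 of 13 primary granule promoters (30.8%), 4 of 21 secondary and tertiary granule promoters (19%) and 3.12% of all. CACGTG, the E-box bound by MYC and by TFEB, was in 10 of 34 lysosomal promoters (29.4%), 7 of 32 ribosome biogenesis promoters (21.9%) and 9.42% of all. Over all called genes with a promoter, the E-box was in 14.4% of those that fell and 9.15% of those that rose. It thus stood in promoters of genes of either direction, with the larger share among the falls. One promoter per motif is shown, the gene of the list with the largest change that holds it, with the motif in capitals. Orc1 is at chr4:108579204-108579503 (+), Mpo at chr11:87793534-87793833 (+) and Ctsd at chr7:142387778-142388077 (-).
Orc1: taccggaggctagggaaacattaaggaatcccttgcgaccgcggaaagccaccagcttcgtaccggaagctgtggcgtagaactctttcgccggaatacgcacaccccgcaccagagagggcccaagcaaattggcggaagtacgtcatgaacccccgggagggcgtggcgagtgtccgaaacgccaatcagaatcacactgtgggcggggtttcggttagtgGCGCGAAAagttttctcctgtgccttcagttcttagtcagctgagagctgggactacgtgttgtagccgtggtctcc
Mpo: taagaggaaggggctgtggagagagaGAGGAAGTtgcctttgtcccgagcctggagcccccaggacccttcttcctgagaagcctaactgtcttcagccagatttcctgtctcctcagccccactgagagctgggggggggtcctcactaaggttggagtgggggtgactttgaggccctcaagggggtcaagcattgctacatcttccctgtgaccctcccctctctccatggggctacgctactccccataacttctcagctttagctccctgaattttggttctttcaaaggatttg
Ctsd: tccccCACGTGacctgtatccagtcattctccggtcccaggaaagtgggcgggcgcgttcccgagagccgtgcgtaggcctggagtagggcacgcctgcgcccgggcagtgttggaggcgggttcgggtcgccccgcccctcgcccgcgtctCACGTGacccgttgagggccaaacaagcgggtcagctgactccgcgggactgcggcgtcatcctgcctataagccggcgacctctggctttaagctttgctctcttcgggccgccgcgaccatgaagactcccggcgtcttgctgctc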

How the data were processed

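RNA was sequenced after ribosomal RNA depletion from 10 cultures, 6 of MLL-AF9-i139 and 4 of MLL-AF9-ieGFP. The deposited values are raw gene counts that the authors made with STAR 2.5.3e and featureCounts 1.6.0 on GRCm38 with GENCODE annotation. How strand and overlapping genes were handled is not given in the sources used here, so reads of overlapping or antisense genes cannot be told apart. The authors deposited 2 count tables with identical values in the columns used, and 14 columns of other samples were not used.

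A gene entered when its 6 libraries together held 10 counts or more. The test was that of edgeR 4.0.16 (R 4.3.3), the quasi-likelihood test, with TMM factors, the clone as a block and Benjamini-Hochberg adjustment at 0.05. The labels pair the libraries by clone. Residuals of the same clone correlated at 0.378, 0.285 and 0.411, and those of different clones between -0.313 and -0.0433. Residuals were taken from the mean of the 3 libraries of a group. That centring by itself offsets the same-clone values with negative ones, so the negative values are no separate evidence for the pairing. The sources used here do not say whether the clones came from separate mice, so the p-values measure the spread among clones. The difference between constructs was tested as an interaction over 10 libraries with the pair as a block. Log2 fold changes of single clones used a prior count of 2. Alternatives were the fit without the block, DESeq2 1.42.0, other size factors, other filters, all libraries in 1 fit and each clone left out. The scripts were tested on simulated data.

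Gene lists and members were chosen with earlier results of these data known. No set test was run, and lists are given as counts and medians. Named genes were list anchors, the 2 largest called rises and falls of each list, the 10 largest rises and falls outside the lists with an average log2 CPM of at least 1 and the same direction in 3 clones, and the 5 smallest p-values of the interaction. Bms1 and Cdc6 were added by their seed match. Gene positions are from GENCODE M21. Values of some genes are not reported here.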

Additional observations from a re-analysis of the deposited data

Results flagged for a closer look

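The response of MLL-AF9-i139 to DOX differed from that of MLL-AF9-ieGFP, by edgeR's quasi-likelihood test of the interaction with Benjamini-Hochberg adjustment, for 12 of the genes named by rule and reported here. The differences on the log2 scale were 3.17 ± 0.20 (SE) for Ssbp2 (adjusted p = 0.000455), 4.50 ± 0.41 for Il1rn (adjusted p = 0.00443), 3.84 ± 0.35 for 4833422C13Rik (adjusted p = 0.00443), 4.46 ± 0.42 for Gm29642 (adjusted p = 0.00469) and 1.50 ± 0.15 for Ces2g (adjusted p = 0.00632). They were 3.28 ± 0.36 for Gm7135 (adjusted p = 0.012), 3.09 ± 0.42 for Serpinb9g (adjusted p = 0.0293), 1.85 ± 0.26 for Wfdc21 (adjusted p = 0.0293), 3.05 ± 0.43 for Stfa2l1 (adjusted p = 0.0303) and 2.80 ± 0.40 for Angptl4 (adjusted p = 0.0303). For Lcn2 the difference was 1.83 ± 0.29 (adjusted p = 0.0436) and for Gm32089 5.70 ± 0.90 (adjusted p = 0.0451). The 2 control pairs are of 1 clone, so these p-values do not measure the spread among control clones.

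Clone 3, treated for 72 h, moved against both clones treated for 48 h in 16 of 216 named genes, and these differences were not tested. Clone 3 minus the mean of clones 1 and 2, on the log2 scale, was -2.56 for Abca1, -1.63 for Nlrp3, -1.41 for Plin2, -0.93 for Anxa1, -0.85 for Cebpb, -0.60 for Bbc3, -0.56 for Mcl1, -0.45 for Mdm2, -0.35 for S100a9, -0.27 for Mki67 and -0.22 for Nfe2l2. It was 0.76 for Dusp6, 0.71 for Elane, 0.70 for Prtn3, 0.41 for Fth1 and 0.30 for Ddit3. Anxa1 lies wholly inside other annotated genes. The medians of 8 lists did the same, by 0.52 for primary granule proteins, 0.40 for the ATF4 and serine-glycine program, 0.38 for G1 cyclins and kinases, 0.23 for the unfolded protein response and chaperones and 0.20 for cholesterol synthesis. The difference was -0.38 for eosinophil, basophil and mast cell genes and -0.18 for DNA methylation and chromatin regulators. It was -0.11 for cell cycle inhibitors other than those the study names. Clone and time of DOX cannot be told apart.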

How the results depend on the processing

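Without the replicate block the calls went from 1356 higher and 1025 lower to 11 and 1, and the interaction from 38 to 1. With all 10 libraries in 1 fit they were 2305 and 2200. Leaving out 1 clone gave between 266 and 4130 genes higher and between 58 and 3844 lower. The lowest counts came without clone 1 and the highest without clone 3, and fewer libraries were fitted each time. DESeq2, other size factors and other filters kept both counts within 1.5 times, and no gene called in the 3 clones reversed in any of the fits. All of these fits share libraries with the main fit, so the lack of reversals is no separate support. With total counts alone 61.7% of the calls were higher, against 56.95% with TMM factors, and 82.1% without clone 1 and 78.6% without clone 2. The interaction gave 720 calls with DESeq2, 8 with at least 10 counts in 3 libraries and 4758 with the 48 h pairs alone, and between 4 (without clone 1) and 5616 (without clone 3) with 1 clone left out. The median of the ERK pathway feedback genes went from 0.13 to -0.0134 without clone 3 (0.18 without clone 2). List medians nearer 0 than the SD of their clone medians changed sign in some fits too, such as the mitochondrial genes of the respiratory chain (0.11 to -0.13) and primary granule proteins (0.02 to -0.23), both without clone 3. Of 169 called named genes 6 were still called without the block and between 155 and 169 under the other scalings, filters and tools. The causes of these changes were not tested. At these depths, genes under 10 counts in total could not be judged.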
